A study of Mus musculus with 19 samples.

Results

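The respiratory chain genes of the mouse retina were followed through 3 comparisons that change Pou3f1, a gene for a POU family DNA-binding protein. Genes were taken by symbol from the authors' deposited tables. The rule took the mitochondrially encoded mRNAs of the chain (mt-Nd, mt-Co, mt-Cytb and mt-Atp) and the nuclear Nduf, Sdh, Uqcr, Cox4 to Cox8 and Atp5 genes. It found 115 genes of the 35734 listed, of which 13 are mitochondrially encoded and 102 are nuclear. The nuclear set holds 43 genes of complex I, 4 of complex II, 10 of complex III, 21 of complex IV and 24 of ATP synthase, with annotated pseudogenes and tissue-restricted isoforms included. The mitochondrial set holds 7 mRNAs of complex I, 1 of complex III, 3 of complex IV and 2 of ATP synthase. The rule goes by symbol and uses no measured value, but it was set with earlier results of these data known.

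The respiratory chain passes electrons from NADH and succinate to oxygen and pumps protons across the inner mitochondrial membrane, and ATP synthase uses the return of these protons to make ATP. Complexes I, III and IV and ATP synthase are built from subunits of both genomes, whereas complex II is wholly nuclear encoded. The mitochondrial genome is transcribed from both strands into long precursors that are cut into separate RNAs, and mt-Nd6 is the one mRNA of this set read from the opposite strand. Nuclear subunits are transcribed one gene at a time, and their promoters are known for sites of NRF1 and of ETS family factors. In the retina, photoreceptor inner segments are packed with mitochondria.

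In the overexpression experiment, wild-type CD1 pups received plasmid DNA by electroporation of the eye on postnatal day 1, carrying either Pou3f1 or a Gfp control. Green fluorescent cells were sorted and pooled to 150000 cells per replicate after 48 h (3 Pou3f1 and 3 Gfp libraries) or after 14 days (5 Pou3f1 and 4 Gfp libraries). The other experiment used whole E17.5 retinas of the C57B6J strain, from Pou3f1 knockouts (2 libraries) and heterozygotes (2 libraries), so the controls also carry a mutant allele. Neither the promoter of the plasmids nor the kind of mutant allele is given in the labels. The age of the late groups is written here as 14 days after electroporation, as in the sample labels, although the protocol gives a postnatal day instead.

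Each deposited table holds 1 comparison with 1 line per gene and no value per library, so depth and spread per library are unknown and the error given is the authors' standard error (SE). Fold changes are the authors' shrunken log2 values, and a gene was called higher or lower where the authors' adjusted p was under 0.05. Members with an adjusted p numbered 96 of 102 listed at 48 h, 99 of 110 at 14 days and 96 of 115 at E17.5. The remainder were mainly pseudogenes and isoforms of muscle or sperm, which lay under the authors' abundance limit. In the authors' deposited tables Pou3f1 itself had log2 fold changes of 0.91 ± 0.26 (SE) at 48 h, of 5.57 ± 0.27 at 14 days and of -0.69 at E17.5 (adjusted p = 0.0233, 3.40e-88 and 1.98e-08). Its mean count over both groups was 37279 at 48 h and 16972 at 14 days. The smaller fold at 48 h thus came with the larger mean count, and the Pou3f1 level of the Gfp cells alone is unknown. For E17.5 a positive value was taken to mean higher in the knockout, since Pou3f1 is negative, although the file's name puts the heterozygote first. Every E17.5 direction given here rests on that reading. The file's name also gives E14 as the stage, whereas the sample labels give E17.5 for collection, and the stage of the labels is used here.

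Of the 13 mitochondrial mRNAs, 7 have a near-identical annotated copy in the nuclear genome (at least 98% identity over at least 100 bases). Only annotated transcripts of listed genes were searched, not the genome sequence. All 7 copies are unprocessed pseudogenes in a single block on the minus strand of chromosome 1 (mm10), between Gm29216 at chr1:24615706-24616197 and Gm28439 at chr1:24611535-24612410. The first 60 bases of mt-Co3 (chrM:8607-9390) and mt-Co2 (chrM:7013-7696) are shown with those of their copies, because these members gave the most extreme folds at 48 h and cannot be told from their copies by sequence. The same stretch of mt-Nd3 (chrM:9459-9806) and bases 1063 to 1122 of mt-Co1 (chrM:5328-6872) hold the only base that differs over 345 and 483 aligned bases. Capitals mark that base, T3C for mt-Nd3 and A1066T for mt-Co1, counted from 1 at the 5′ end of the mitochondrial mRNA, with the mitochondrial base first.
mt-Co3: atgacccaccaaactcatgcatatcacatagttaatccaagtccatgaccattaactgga
Gm28437: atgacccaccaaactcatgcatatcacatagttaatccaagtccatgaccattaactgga
mt-Co2: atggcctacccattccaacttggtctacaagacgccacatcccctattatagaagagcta
Gm28661: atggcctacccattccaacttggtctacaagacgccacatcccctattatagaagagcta
mt-Nd3: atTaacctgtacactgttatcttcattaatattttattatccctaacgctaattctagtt
Gm28438: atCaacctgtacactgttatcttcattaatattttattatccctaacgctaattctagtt
mt-Co1: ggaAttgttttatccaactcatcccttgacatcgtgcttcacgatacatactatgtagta
Gm29216: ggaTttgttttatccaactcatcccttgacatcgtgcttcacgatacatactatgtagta
The alignments of mt-Co3 with Gm28437 (783 bases), mt-Co2 with Gm28661 (681 bases), mt-Atp6 with Gm10925 (678 bases), mt-Nd4 with Gm28439 (876 bases) and mt-Nd4l with Gm10222 (294 bases) held 0 mismatches. The 6 mRNAs with no such annotated copy are mt-Nd1, mt-Nd2, mt-Nd5, mt-Nd6, mt-Cytb and mt-Atp8. Copies that are not annotated were not looked for. One of mt-Atp8 may lie in the same block, since its neighbours mt-Co2 and mt-Atp6 both have copies there. The labels name Salmon among the tools but do not say how reads that match both places were assigned.

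The 48 h comparison is the early one after electroporation, with Pou3f1 itself 0.91 above Gfp on the log2 scale. All 13 mitochondrial mRNAs lay above 0 and 11 of them rose, whereas 2 of 83 nuclear members rose and 0 fell. At an unadjusted p under 0.05, 9 nuclear members were higher and 1 was lower in these DESeq2 tables. Over all tested genes 1.48% were called higher and 1.56% lower, so the nuclear count lies near the background and the mitochondrial one far above it. At an adjusted p under 0.01 the counts were 10 of 13 and 1 of 83, against 1.56% of all genes in either direction, and at 1.5-fold or more they were 11 of 13 and 2 of 83, against 2.60%. The median log2 fold change was 0.81 over the mitochondrial mRNAs, 0.105 over the nuclear members and -0.0059 over all tested genes. Because bulk samples were measured, fewer cells of a type and less RNA per cell cannot be told apart in this or the later comparisons.

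The complex I core subunits of the membrane arm had log2 fold changes between 0.59 and 1.04 at 48 h. In the authors' deposited table, mt-Nd1 rose by 1.04 ± 0.18 on the log2 scale (adjusted p = 3.45e-06) and mt-Nd3 by 0.99 ± 0.17 (adjusted p = 4.68e-06). The same table gives a rise of 0.91 ± 0.18 for mt-Nd2 (adjusted p = 6.53e-05) and of 0.72 ± 0.18 for mt-Nd4 (adjusted p = 0.00418). Another subunit read from the same strand, mt-Nd5, rose by 0.65 ± 0.19 (the authors' deposited table, adjusted p = 0.0335), a call that was lost with adjustment over every gene (adjusted p = 0.0507). The short mt-Nd4l, which overlaps mt-Nd4 on the same precursor, was not called at 0.59 ± 0.21 in that table (adjusted p = 0.0924). The mRNA of the opposite strand, mt-Nd6, rose by 0.85 ± 0.17 (the authors' deposited table, adjusted p = 2.01e-04), inside the range of the others.

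For complex III, the authors' deposited table gives a rise of 0.70 ± 0.18 for mt-Cytb, the cytochrome b subunit (adjusted p = 0.00678). Complex IV held both extremes. Within it, mt-Co3 rose by 1.27 ± 0.19, or 2.41-fold, and mt-Co1, the catalytic subunit, by 0.83 ± 0.17 (the authors' deposited table, adjusted p = 1.08e-08 and 2.01e-04). The subunit that takes electrons from cytochrome c, mt-Co2, had the lowest value of the 13 in that table at 0.55 ± 0.25 and was not called (adjusted p = 0.254). Of the ATP synthase mRNAs, mt-Atp6, the proton channel subunit, rose by 0.81 ± 0.19 and mt-Atp8, a small membrane subunit, by 0.77 ± 0.20 (the authors' deposited table, adjusted p = 0.00165 and 0.00908).

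**Figure D1:**
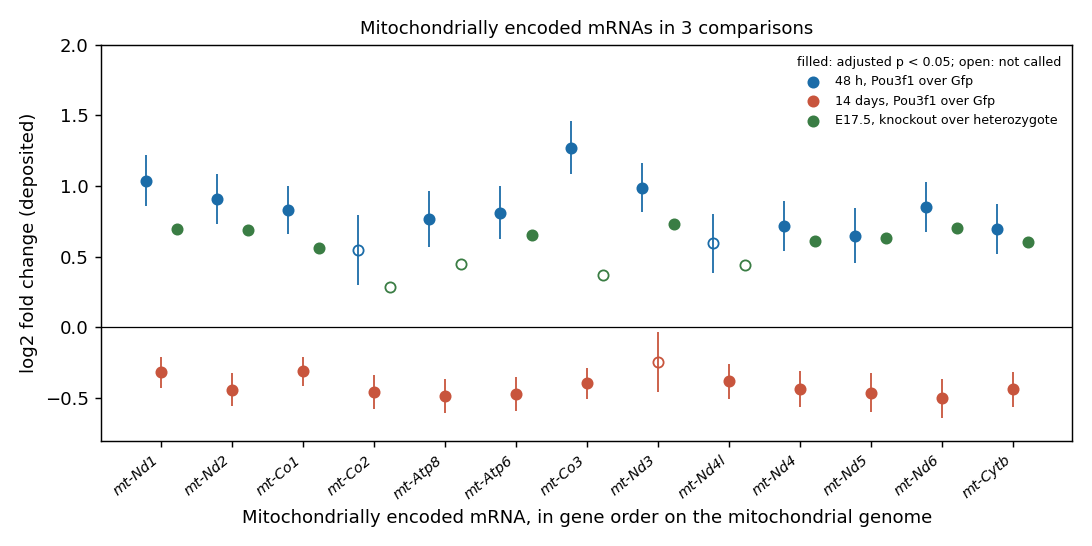
Deposited log2 fold change (vertical axis) of each of the 13 mitochondrial mRNAs in gene order, with the authors' SE as bars at 48 h and 14 days and no SE listed at E17.5; filled points have an adjusted p under 0.05. All 13 lie above 0 at 48 h (0.55 to 1.27) and at E17.5 (0.28 to 0.73), and all 13 below 0 at 14 days (-0.50 to -0.24).

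Much of the width among the 13 folds at 48 h lay in the mRNAs with an annotated chromosome 1 copy. The 6 mRNAs without an annotated copy ranged from 0.65 to 1.04 with a median of 0.81, and 6 of 6 rose. Sums of member and copy were computed for the 5 pairs with listed copies, from the authors' mean counts and folds. Because these folds are shrunken, the sums are too, and they carry no SE. The part of shrinkage in their spread was not tested. Gm28661 took 84.4% of the mean count of its pair with mt-Co2 and rose by 0.91 ± 0.15 (the authors' deposited table, adjusted p = 1.91e-06). The summed pair had a log2 fold change of 0.85, against 0.55 for mt-Co2 alone. Gm28437 took 43.6% of its pair with mt-Co3 and was not called at 0.23 ± 0.24 (the authors' deposited table, adjusted p = 0.744). Here the sum was 0.795, against 1.27 for mt-Co3 alone.

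The other summed pairs lay at 0.87 for mt-Atp6 with Gm10925, 0.82 for mt-Co1 with Gm29216 and 0.91 for mt-Nd3 with Gm28438. With sums in place of single values, the 13 folds spanned 0.443 from mt-Nd4l to mt-Nd1, against 0.722 without. Their SD over genes was 0.12 with sums and 0.198 without. The most extreme member values at 48 h, those of mt-Co3 and mt-Co2, were therefore not outside the range of the others once each pair was summed.

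Of the nuclear members at 48 h, the 2 that rose belong to ATP synthase and complex IV. Atp5g2, one of the genes for subunit c of the membrane ring, rose by 1.004 ± 0.24, with a mean count of 181 (the authors' deposited table, adjusted p = 0.00217). Its pseudogene Gm10175 is identical over 127 bases and had a mean count of 2145 and a log2 fold change of -0.11 ± 0.14 in that table (adjusted p = 0.807). The other genes for the same subunit c had values near 0 in the authors' deposited table, 0.06 ± 0.14 for Atp5g1 and 0.06 ± 0.13 for Atp5g3 (adjusted p = 0.912 and 0.902). Cox7b, a small accessory subunit of complex IV with no near-identical annotated copy, rose by 0.66 ± 0.18, with a mean count of 870 (the authors' deposited table, adjusted p = 0.0142). Atp5e, the epsilon subunit of the ATP synthase rotor, lay just outside the threshold in that table at 0.49 ± 0.16 (adjusted p = 0.0531).

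Most nuclear members lay above 0, called or not. Of 83 tested, 66 lay above 0 (79.5%), against 49.1% of all tested genes. The share was alike in each complex, with 32 of 40 in complex I, 3 of 4 in complex II, 6 of 8 in complex III, 11 of 14 in complex IV and 14 of 17 in ATP synthase. Medians by complex ran from 0.067 for complexes II and III to 0.156 for complex IV. Only 3 of 83 nuclear members (Atp5g2, Cox7b and Ndufb4) reached the lowest mitochondrial value.

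At 14 days the mitochondrial mRNAs were lower in Pou3f1 cells than in Gfp cells. All 13 lay below 0 and 12 fell, with a median of -0.44, while 4 of 86 nuclear members fell and 0 rose with a median of -0.026. At an unadjusted p under 0.05, 2 nuclear members were higher and 7 lower. Over all tested genes 9.21% were called lower and 11.5% higher, with a median of -0.0146, so the nuclear count lies below the background. The folds were small, and 0 of the 12 and 0 of the 4 reached 1.5-fold, against 9.51% of all genes that were called at that size. At an adjusted p under 0.01, 9 of 13 mitochondrial and 2 of 86 nuclear members were called lower, against 11.6% of all genes in either direction.

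By complex, the authors' deposited table for 14 days gives mt-Nd6 the largest fall of complex I, -0.50 ± 0.14 (adjusted p = 0.00288). In that table mt-Nd5 fell by 0.46 ± 0.14, mt-Nd2 by 0.44 ± 0.12 and mt-Nd4 by 0.44 ± 0.13 (adjusted p = 0.00816, 0.00199 and 0.00659). The smaller falls of the complex were those of mt-Nd4l by 0.38 ± 0.13 and mt-Nd1 by 0.32 ± 0.11 (the authors' deposited table, adjusted p = 0.0168 and 0.0195). The exception, mt-Nd3, had -0.24 ± 0.21 in that table and was not called (adjusted p = 0.455), with a larger SE than the rest. Elsewhere in the chain, mt-Cytb fell by 0.44 ± 0.12 (the authors' deposited table, adjusted p = 0.00406). Complex IV showed falls of 0.46 ± 0.12 for mt-Co2, 0.39 ± 0.11 for mt-Co3 and 0.31 ± 0.10 for mt-Co1 (the authors' deposited table, adjusted p = 0.00206, 0.00405 and 0.0138). For ATP synthase, mt-Atp8 fell by 0.48 ± 0.12 and mt-Atp6 by 0.47 ± 0.12 (the authors' deposited table, adjusted p = 0.00139 and 0.00125).

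Copies took other shares of the pairs at 14 days than at 48 h. Gm28661 held 23.5% of its pair with mt-Co2 at 14 days, against 84.4% at 48 h, and Gm28437 held 21.9% of its pair with mt-Co3, against 43.6%. The reverse held for Gm28438, with 30.3% of its pair with mt-Nd3 at 14 days, against 6.52% at 48 h. Summed pairs had log2 fold changes of -0.42 for mt-Atp6, -0.365 for mt-Co3, -0.33 for mt-Co2, -0.32 for mt-Co1 and -0.22 for mt-Nd3. The 13 folds then spanned 0.281, against 0.26 for the members alone, so summing did not narrow them here. Among the 6 mRNAs without an annotated copy, 6 fell.

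The nuclear members described here that fell at 14 days were subunits of complex III and a pseudogene. Uqcrh, the hinge protein of complex III, fell by 0.36 ± 0.10, with a mean count of 3191 (the authors' deposited table, adjusted p = 0.00288). Uqcrb, another accessory subunit of complex III, fell by 0.28 ± 0.10 in that table (adjusted p = 0.0224). Ndufb4c, annotated as a processed pseudogene identical to 390 bases of Ndufb4, fell by 0.22 ± 0.08 (adjusted p = 0.0464, and 0.0616 with adjustment over every gene) and Ndufb4 itself had -0.29 ± 0.15 (adjusted p = 0.176) in the authors' deposited table. Above 0 lay 36 of 86 nuclear members (41.9%), against 47.8% of all tested genes. The nuclear and mitochondrial values overlapped more than at 48 h, with 10 of 86 nuclear members at or below the highest mitochondrial value.

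The difference between both overexpression comparisons was tested directly, as the 14 day fold minus the 48 h fold with the SE of both (two-sided z test, Benjamini-Hochberg adjusted over 14580 genes). They share no library. All 13 mitochondrial mRNAs had a lower fold at 14 days than at 48 h (adjusted p from 1.38e-11 to 0.00899), with a median difference of -1.23, against 0.0256 over all genes tested. Over all genes 1.66% were called lower and 4.48% higher. The largest difference was that of mt-Co3, -1.67 ± 0.22, and the smallest that of mt-Nd4l, -0.98 ± 0.24 (adjusted p = 0.00279). For mt-Nd6 the difference was -1.35 ± 0.22 (adjusted p = 2.68e-07).

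Nuclear members were called lower in 5 of 83 cases and higher in 0 in that difference, with a median of -0.151. They were Cox7b (-0.80 ± 0.22), Atp5g2 (-0.96 ± 0.27, adjusted p = 0.0148) and Atp5l, which encodes subunit g of ATP synthase (-0.56 ± 0.17, adjusted p = 0.0264). The identical pair made up the rest, with Ndufb4 at -0.88 ± 0.29 and Ndufb4c at -0.68 ± 0.22 (adjusted p = 0.0390 and 0.0387). Both times also differ in the age of the cells, in the fit and in the summed mean counts (38507471 at 14 days and 16020842 at 48 h). They differ as well in the log2 fold change of Pou3f1 itself, 0.91 at 48 h and 5.57 at 14 days. The part of these in the difference was not tested.

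At E17.5 the comparison asks what the retina shows when Pou3f1 is missing. Members of both sets rose in knockout retinas. All 13 mitochondrial mRNAs lay above 0 and 9 rose with a median of 0.61, and 25 of 83 nuclear members rose and 2 fell with a median of 0.18. Over all tested genes 4.70% were called higher and 5.34% lower, with a median of 0.0035. The direction is that of the 48 h comparison, although Pou3f1 is lower in the knockout and higher in the electroporated cells.

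The authors' deposited table for E17.5 gives no SE. Complex I mRNAs that rose in it were mt-Nd3 by 0.73, mt-Nd6 by 0.70, mt-Nd1 by 0.70, mt-Nd2 by 0.69, mt-Nd5 by 0.63 and mt-Nd4 by 0.61 (adjusted p from 4.03e-10 to 2.01e-05). In the other complexes, mt-Atp6 rose by 0.65 (adjusted p = 1.80e-13), mt-Cytb by 0.60 (adjusted p = 8.30e-08) and mt-Co1 by 0.56 (adjusted p = 1.05e-05) in the authors' deposited table. The 4 that were not called had 0.45 for mt-Atp8, 0.44 for mt-Nd4l, 0.37 for mt-Co3 and 0.28 for mt-Co2 in that table (adjusted p = 0.0755, 0.0817, 0.176 and 0.366). At an unadjusted p under 0.05, 12 of 13 were higher.

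Of these 4, mt-Co2, mt-Co3 and mt-Nd4l have an identical annotated chromosome 1 copy. Gm28661, the copy of mt-Co2, rose by 0.63 (the authors' deposited table, adjusted p = 1.15e-05), and Gm28437, the copy of mt-Co3, had 0.12 there (adjusted p = 0.696). Copies of called members also rose in the authors' deposited table, Gm28438 by 0.74 (adjusted p = 3.66e-12), Gm10925 by 0.51 (adjusted p = 0.0378) and Gm29216 by 0.45 (adjusted p = 0.0250). Pair sums could not be formed because this table gives no abundance. Of the 6 mRNAs without an annotated copy, 5 rose.

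**Figure D2:**
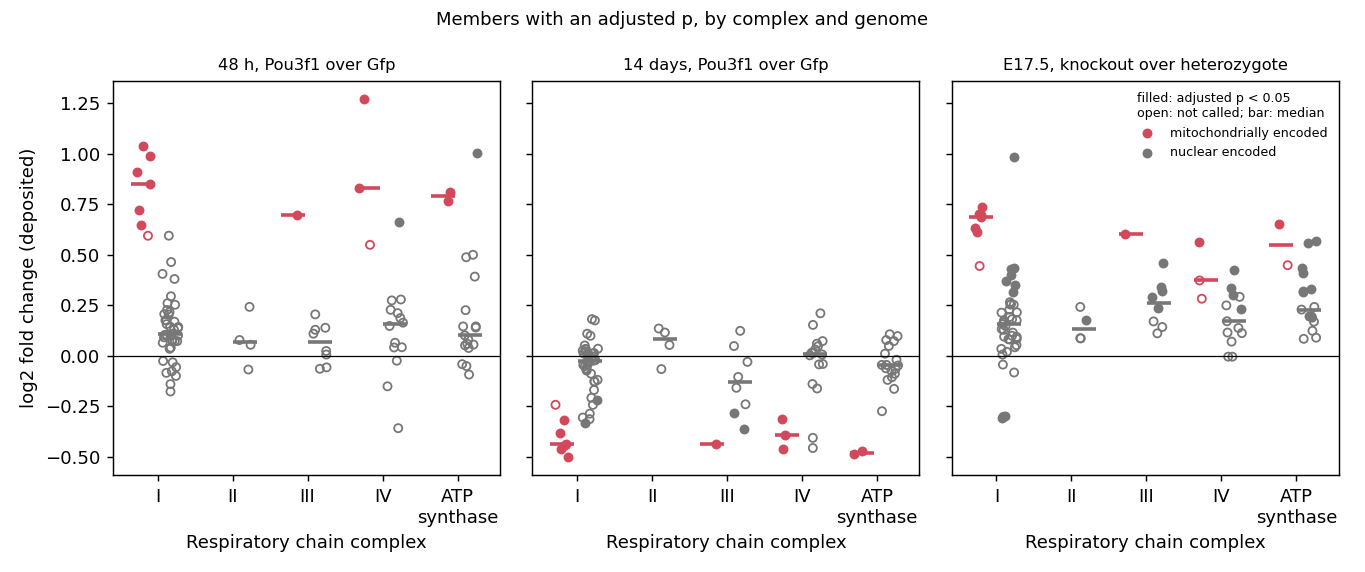
Deposited log2 fold change (vertical axis) of every member with an adjusted p, by complex and by genome, in the 3 comparisons; bars are medians and filled points were called. The mitochondrial medians lie above the nuclear ones of the same complex at 48 h and E17.5 and below them at 14 days, and 27 nuclear members are filled at E17.5, against 4 at 14 days and 2 at 48 h.

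In every complex with both genomes the mitochondrial median lay farther from 0 than the nuclear one, in all 3 comparisons. At 48 h the medians of mitochondrial and nuclear members were 0.85 and 0.106 for complex I, 0.70 and 0.067 for complex III, 0.83 and 0.156 for complex IV and 0.79 and 0.101 for ATP synthase. At 14 days they were -0.44 and -0.02 for complex I, -0.44 and -0.13 for complex III, -0.39 and 0.01 for complex IV and -0.48 and -0.05 for ATP synthase. At E17.5 they were 0.69 and 0.16 for complex I, 0.60 and 0.26 for complex III, 0.37 and 0.17 for complex IV and 0.55 and 0.23 for ATP synthase. Taken over all complexes, the mitochondrial minus the nuclear median was 0.71 at 48 h, -0.41 at 14 days and, in the embryos, 0.43. Genes are not replicates, and no test was run on these medians.

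Nuclear members called higher at E17.5 belonged to every complex, in unequal shares. ATP synthase had 8 of 17 tested members called higher, complex III 5 of 8, complex IV 4 of 13, complex I 7 of 41 and complex II 1 of 4. Complexes were assigned by symbol, so the 7 of complex I include Ndufa4, which was later found in complex IV. They also include Ndufs5-ps, Ndufb4c and Ndufb1-ps, which carry a pseudogene symbol or annotation. With adjustment over every gene the calls of Sdhb, the only one of complex II, of Cox7a2 and of Uqcr11 were lost (adjusted p = 0.0778, 0.0703 and 0.0673), which leaves 22 nuclear members higher. Above 0 lay 76 of 83 (91.6%), against 50.8% of all tested genes. Of the nuclear calls 1 reached 1.5-fold, Ndufs5-ps, and of the mitochondrial ones 8, against 1.70% of all genes. At an adjusted p under 0.01, 16 nuclear and 9 mitochondrial members were called, all higher, against 5.90% of all genes in either direction.

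For ATP synthase at E17.5, the largest called values in the authors' deposited table were those of Atp5e with 0.57 (adjusted p = 2.20e-05) and of Atp5md, a small subunit at the dimer interface, with 0.56 (adjusted p = 1.34e-07). Atp5mpl, a small membrane-embedded subunit, rose by 0.43 and Atp5j2, subunit f, by 0.33 (the authors' deposited table, adjusted p = 8.31e-06 and 6.33e-04). The other 4, named after their values were seen, were Atp5l with 0.41, Atp5k (subunit e) with 0.32, Atp5j (coupling factor 6) with 0.32 and Atp5o (the stalk subunit OSCP) with 0.20 in the authors' deposited table.

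Complex III was led by Uqcrq, a small accessory subunit, with a rise of 0.46, and Uqcrb with a rise of 0.32 (the authors' deposited table, adjusted p = 8.85e-06 and 0.00117). Uqcr10, Uqcrh and Uqcr11 rose by 0.34, 0.29 and 0.24 in the authors' deposited table. Uqcrb and Uqcrh are the complex III genes that fell at 14 days. For complex IV, Cox7b rose by 0.42, Cox7a2 by 0.34, Cox6b1 by 0.30 and Cox4i1 by 0.23 (the authors' deposited table, adjusted p = 0.00436, 0.0431, 0.00157 and 0.0248). Cox7b was thus the only nuclear member called higher in both the 48 h and the E17.5 tables. Ndufa4, first assigned to complex I and later found in complex IV, rose by 0.43 (the authors' deposited table, adjusted p = 1.68e-04). Sdhb, the iron-sulfur subunit of complex II, rose by 0.18 in that table (adjusted p = 0.0476). Those outside the naming rule (Uqcr10, Uqcr11, Uqcrh, Cox7a2, Cox6b1, Cox4i1, Sdhb and Cox7b at E17.5) were chosen after their values were seen.

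Complex I held both called falls at E17.5. Ndufs5, an accessory subunit, fell by 0.30 and Ndufa12, another accessory subunit, by 0.31 (the authors' deposited table, adjusted p = 0.0212 and 0.0283). Ndufs5-ps, a processed pseudogene on chromosome 16 that matches Ndufs5 at 99.4% over 319 bases, rose by 0.98 (the authors' deposited table, adjusted p = 1.88e-14). Ndufa12-ps, the near-identical pseudogene of Ndufa12, had 0.12 there (adjusted p = 0.331). Ndufs5 lies on chromosome 4 (chr4:123712710-123718202, minus strand, mm10), 0.944 Mb from Pou3f1 (chr4:124656807-124660655, plus strand). Without the members that have a near-identical annotated copy, 17 nuclear members rose and 0 fell. The remaining complex I rises in the authors' deposited table, named after their values were seen, were those of Ndufb1-ps with 0.44, Ndufb4c with 0.40, Ndufb6 with 0.37, Ndufs6 with 0.35 and Ndufb8 with 0.32.

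Nuclear members have short transcripts, and fold changes moved with transcript length in these tables. Their annotated transcripts had a median of 861 bases at E17.5, against 3192 over all tested genes, and the 13 mitochondrial mRNAs one of 784. At E17.5 the Spearman correlation of length and fold was -0.29 across 83 nuclear members and -0.32 across 14763 genes. Of 42 nuclear members at or under 861 bases 19 were called higher, against 6 of 41 longer ones. Over all tested genes of any length 4.70% were called higher. The share of all genes within each length range was not computed, so these counts cannot be set against short genes in general. With the trend over all genes removed, the nuclear median was 0.09 in place of 0.18, and the mitochondrial median 0.53 in place of 0.61. The corresponding values at 48 h were 0.03 in place of 0.105 and 0.70 in place of 0.81, with a correlation of -0.23 across all genes. At 14 days, where it was 0.03 across all genes, the medians were 0.027 for nuclear and -0.39 for mitochondrial members. The correlations are across genes of the same libraries and are descriptions.

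**Figure D3:**
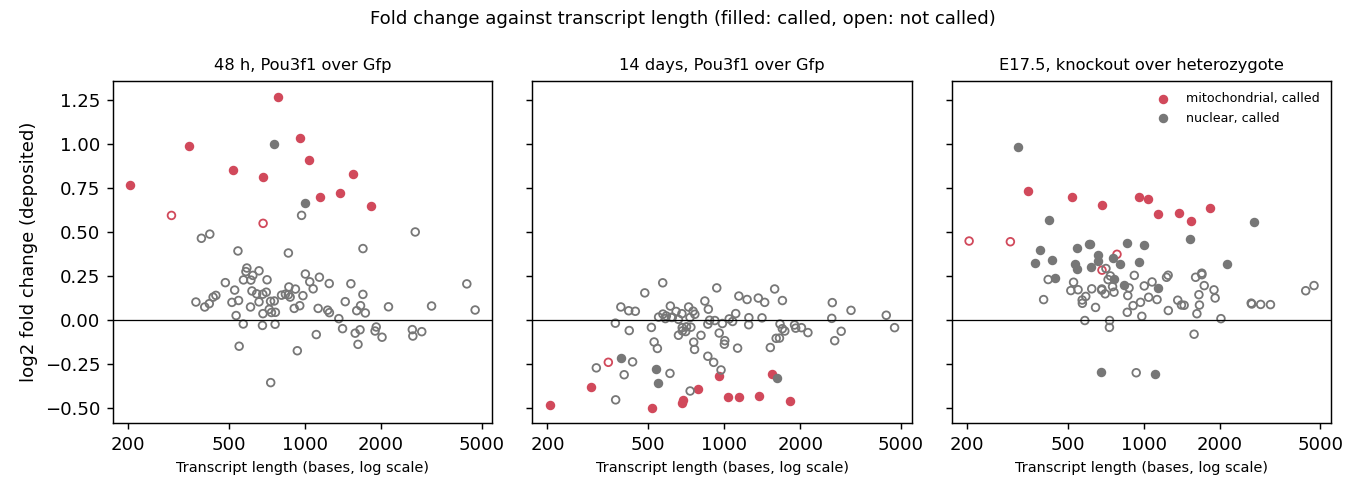
Deposited log2 fold change (vertical axis) against annotated transcript length in bases (log scale) for members with an adjusted p; filled points were called. At E17.5 the nuclear members called higher lie mostly among the shorter transcripts (19 of 42 at or under 861 bases), with no share of all genes by length computed. At the same lengths the mitochondrial mRNAs lie above most nuclear members at 48 h and below most at 14 days.

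The order of the nuclear members was partly shared between the 48 h and E17.5 comparisons. Across 82 of them the Spearman correlation of the folds was 0.48, against 0.26 across 14077 genes, and 63 lay above 0 in both. Across 83 nuclear members the 14 day and 48 h folds had a correlation of -0.03, against 0.13 across 14580 genes. Across 82 the E17.5 and 14 day folds had one of -0.32, against -0.02 across 14555 genes. These comparisons share no library, but the points share transcript length, whose trend was seen at 48 h and at E17.5.

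**Figure D4:**
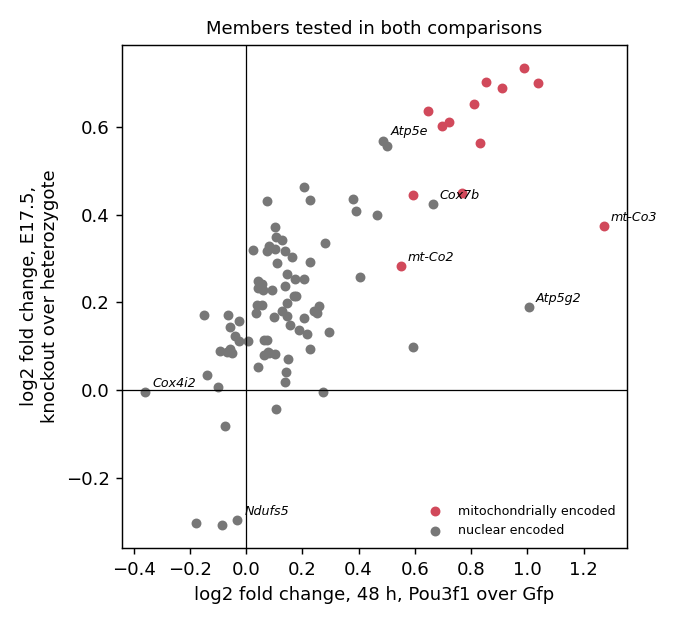
Deposited log2 fold change at E17.5, knockout over heterozygote (vertical axis), against that at 48 h, Pou3f1 over Gfp (horizontal axis), for members with an adjusted p in both tables. Of 82 nuclear members 63 lie above 0 on both axes, and all 13 mitochondrial mRNAs do.

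Promoters of nuclear members were searched because 25 of them rose together at E17.5. RefSeq promoter sequences (GRCm38.p6, 250 bases before to 50 after the gene start) matched 68 nuclear members by symbol, 18 of them called higher at E17.5. Searched on both strands were the octamer ATGCAAAT bound by POU factors, the NRF1 motif, whose matches are shown in capitals, and CCGGAAGT for ETS factors. A gene was counted where any of its promoters matched. The octamer occurred in 1 of 68 members (1.47%), in 0 of the 18 and in 1.97% of 27025 genes. NRF1 letters occurred in 17 of 68 members (25.0%), in 3 of the 18 (16.7%) and in 5.19% of all genes with a promoter. ETS letters occurred in 5 of 68 members (7.35%), in 2 of the 18 (11.1%) and in 4.31% of all genes with a promoter. A match is a description of the window, not a bound site. The promoter of Cox7b (chrX:106015450-106015749, plus strand), the nuclear gene called in both the 48 h and the E17.5 tables, is shown. Beside it are those of Ndufs6 (chr13:73328433-73328732, minus strand) and Atp5o (chr16:91931581-91931880, minus strand), which rose at E17.5. Ndufs6 and Atp5o were picked by adjusted p from the 3 of the 18 that hold NRF1 letters, so they are not typical of the 18. Capitals mark the NRF1 letters, at base 235 in Ndufs6 and base 260 in Atp5o, and Cox7b holds none of the 3 motifs.
Cox7b: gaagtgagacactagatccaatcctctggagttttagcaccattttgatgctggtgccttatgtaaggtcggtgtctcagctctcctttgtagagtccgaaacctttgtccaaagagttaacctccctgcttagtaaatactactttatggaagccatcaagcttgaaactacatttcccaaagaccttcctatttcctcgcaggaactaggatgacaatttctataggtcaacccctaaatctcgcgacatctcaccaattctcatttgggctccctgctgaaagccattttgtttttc
Ndufs6: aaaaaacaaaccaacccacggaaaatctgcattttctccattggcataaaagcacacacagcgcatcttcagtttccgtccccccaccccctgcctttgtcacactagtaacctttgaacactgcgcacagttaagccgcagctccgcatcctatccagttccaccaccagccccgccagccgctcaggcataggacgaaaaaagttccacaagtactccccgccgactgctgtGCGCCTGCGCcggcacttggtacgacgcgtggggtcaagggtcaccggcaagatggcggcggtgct
Atp5o: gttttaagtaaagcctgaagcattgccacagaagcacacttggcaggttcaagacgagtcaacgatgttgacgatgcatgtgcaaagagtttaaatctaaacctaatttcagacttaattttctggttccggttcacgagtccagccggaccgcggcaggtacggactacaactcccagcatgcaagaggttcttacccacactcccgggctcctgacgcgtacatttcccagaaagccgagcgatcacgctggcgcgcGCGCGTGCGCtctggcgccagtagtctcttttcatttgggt

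Levels were compared per kilobase of annotated transcript, from the authors' mean counts over both groups of a comparison. At 48 h mt-Co1 had the highest level of the chain in the authors' deposited table, 51625 normalized counts per kilobase, and mt-Nd3 the lowest mitochondrial level, 6001. At 14 days the same mRNAs held both ends, with 72926 for mt-Co1 and 6067 for mt-Nd3 in the authors' deposited table. The highest nuclear level was that of Atp5b, the catalytic beta subunit of ATP synthase, with 7703 normalized counts per kilobase at 48 h and 26393 at 14 days in the authors' deposited tables. Together the 13 mitochondrial mRNAs took 1.51% of all mean counts at 48 h and 0.933% at 14 days, and the nuclear members 0.790% and 0.804%. Chromosome 1 copies are not part of these shares.

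Tissue-restricted isoforms were mostly scarce, and none was called in any table, while their common partners Ndufa4, Cox6b1, Cox4i1 and Cox7a2 rose at E17.5 as given above. Cox4i2, an isoform of Cox4i1 known from lung and hypoxic cells, had a mean count of 930 at 48 h and 411 at 14 days in the authors' deposited tables. Its log2 fold changes there were -0.36 ± 0.17, -0.41 ± 0.16 and -0.0039 at 48 h, 14 days and E17.5 (adjusted p = 0.275, 0.0600 and 0.991). Ndufa4l2, a hypoxia-induced relative of Ndufa4, had a mean count of 5277 at 48 h, above the 896 of Ndufa4, and 148 at 14 days, below the 4817 of Ndufa4, in the authors' deposited tables. It was not called in those tables at -0.18 ± 0.20, 0.18 ± 0.28 and -0.30 (adjusted p = 0.762, 0.705 and 0.322). The heart and muscle isoforms Cox6a2 and Cox7a1 had mean counts of 0.583 and 10.7 at 48 h in the authors' deposited table.

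Genes that act on the mitochondrial genome and its RNAs had 0 calls at 48 h, where calls over all genes were also few. Over all genes the called shares were 1.48% higher and 1.56% lower at 48 h, 11.5% higher and 9.21% lower at 14 days, and 4.70% higher and 5.34% lower at E17.5. Of 19 genes of mitochondrial DNA transcription and replication 0 were called at 48 h, with a median of 0.112 and 0 at an unadjusted p under 0.05, and 2 fell at 14 days. These were Polg2, the accessory subunit of the mitochondrial DNA polymerase, by 0.43 ± 0.15 and Mterf1a, a mitochondrial transcription terminator, by 0.37 ± 0.13 (the authors' deposited table, adjusted p = 0.0254 and 0.0286). At E17.5 1 of them rose, Ssbp1, the mitochondrial single-strand binding protein, by 0.28 (the authors' deposited table, adjusted p = 0.0149). Among 22 genes of mitochondrial RNA processing and stability 0 were called at 48 h and 0 at 14 days, while 4 rose at E17.5. With an unadjusted p under 0.05 as the limit, 1 was higher and 1 lower at 48 h, and 2 were lower at 14 days. Those that rose included Hsd17b10, a subunit of mitochondrial RNase P, by 0.29, Fastkd2 by 0.44 and Slirp, a partner of the mRNA-stabilizing Lrpprc, by 0.37 (the authors' deposited table, adjusted p = 0.00234, 0.00617 and 0.0318). Called or not, 19 of the 22 RNA genes and 16 of the 19 DNA genes lay above 0 at E17.5, against 50.8% of all tested genes. At 48 h these numbers were 10 of 22 and 10 of 19, against 49.1%.

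Nuclear regulators of mitochondrial genes were called mainly at 14 days, when 5 of 14 fell and 1 rose, against 9.21% of all genes called lower. Gabpb1, a subunit of the ETS factor GABP, rose by 0.34 ± 0.08 while its relative Gabpb2 fell by 0.30 ± 0.09 (the authors' deposited table, adjusted p = 7.41e-04 and 0.00494). The coactivator Ppargc1b fell by 0.58 ± 0.17 in that table (adjusted p = 0.00684), and its relative Ppargc1a, named after its value was seen, by 0.60 ± 0.19 (adjusted p = 0.0134). At 48 h 1 of 12 fell, the lipid-sensing receptor Ppara, by 0.98 ± 0.27, with a mean count of 52.2 (the authors' deposited table, adjusted p = 0.0178). At E17.5 2 of 13 fell, the orphan receptors Esrrg by 0.47 and Esrrb by 0.54 (the authors' deposited table, adjusted p = 1.44e-04 and 0.0234).

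Assembly factors of the complexes are read against the same shares of all genes, 1.48% higher at 48 h, 9.21% lower at 14 days and 4.70% higher at E17.5. At 48 h 1 of 19 complex I factors rose (Foxred1) and 1 of 23 complex IV factors (Cox14), and 0 of the 4, 6 and 5 factors of complexes II and III and ATP synthase were called. In the authors' deposited table Foxred1 had 0.64 ± 0.20 and Cox14 0.74 ± 0.22 (adjusted p = 0.0489 and 0.0329). At 14 days 1 of 19 complex I factors (Ndufaf5), 1 of 4 of complex II (Sdhaf4) and 2 of 6 of complex III (Uqcc3 and Ttc19) fell. So did 1 of 5 of ATP synthase (Atpaf1), and these falls were by 0.23 to 0.44 in the authors' deposited table. Of 23 complex IV factors 0 fell and 1 rose (Cox10, by 0.26 ± 0.08), against 11.5% of all genes called higher. Lists with 1 or 2 calls each are not read as changed. At E17.5 1 of 19 complex I factors (Ndufaf2), 1 of 4 of complex II (Sdhaf4) and 2 of 6 of complex III (Uqcc2 and Lyrm7) rose. So did 2 of 23 of complex IV (Coa3 and Pet100) and 1 of 5 of ATP synthase (Tmem242). These rises were by 0.25 to 0.63 in the authors' deposited table, and 0 of the tested assembly factors fell. Above 0 at E17.5 lay 13 of 19 factors of complex I, 4 of 4 of complex II and 4 of 6 of complex III. For complex IV it was 19 of 23 and for ATP synthase 4 of 5, against 50.8% of all tested genes. Sdhaf4, a complex II assembly factor, was thus called lower at 14 days and higher at E17.5.

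Cell type markers moved in the same tables, and their part in the respiratory chain values was not tested. Over all genes 9.21% were lower and 11.5% higher at 14 days, 1.56% lower and 1.48% higher at 48 h, and 5.34% lower and 4.70% higher at E17.5. At 14 days 16 of 20 rod markers fell with a median of -0.46, and their summed mean count was 3249763. At the same time 13 of 13 microglia markers rose with a median of 1.66 (summed mean count 3223), and 7 of 14 Müller glia markers fell with a median of -0.40 (100022). Of the ganglion cell markers at 14 days 4 of 16 rose and 1 fell. At 48 h 1 of 5 tested rod markers was called lower, with 0 of 5 above 0 and a median of -0.553. Of 12 Müller glia markers 1 was called higher, 1 of 12 lay above 0, the median was -0.367 and 7 were lower with an unadjusted p under 0.05. Also called at 48 h were 1 of 10 vessel markers lower, and 1 of 16 ganglion cell markers higher and 1 lower. Of the 10 vessel markers 1 lay above 0, with a median of -0.367. At an unadjusted p under 0.05, 1 vessel marker was higher and 4 were lower. Of 7 tested microglia markers 0 were called at 48 h and 1 lay above 0, with a median of -0.338. At E17.5 3 of 12 vessel markers fell, 3 of 13 Müller glia markers fell and 2 rose, and 2 of 16 ganglion cell markers rose and 1 fell. At that stage 0 of 9 rod and 0 of 13 microglia markers were called. However, 0 of the 13 microglia markers lay above 0, with a median of -0.26 and 3 lower at an unadjusted p under 0.05. Vessel markers at 14 days fell in 2 of 11 cases, with 0 above 0, a median of -0.572 and 6 lower at an unadjusted p under 0.05. The 1 listed nuclear-retained RNA, Snhg11, fell by 0.65 at E17.5 in the authors' deposited table (adjusted p = 2.39e-05) and was not called at the other times. Red blood cell markers were called in 0 of 1 case at 48 h, 1 up and 1 down of 6 at 14 days and 0 of 5 at E17.5. No marker level per group can be given, because the tables hold means over both groups or none.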

How the data were processed

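RNA-seq of 19 mouse retina libraries in 6 groups was used through 3 tables, each a finished comparison with no value per library, and depth is unknown. The submitters' processing notes name Salmon, DESeq2, MACS2 and mm10, with no versions or roles. The signal column at 48 h and 14 days is the authors' mean of counts divided by size factors over all libraries of a comparison. The log2 fold changes were deposited by the authors and are shrunken toward 0, as the values show. The authors' Wald score is the log2 fold change over its SE, which the recomputed values matched to within 4.45e-07. The authors' p-values are two-sided, and the deposited adjusted p follows Benjamini-Hochberg over genes above an abundance limit. The E17.5 table holds fold change and p only.

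Members and the 20 lists were chosen with earlier results of these data known. Named were all mitochondrial mRNAs, up to 8 called nuclear members per direction and comparison by adjusted p, up to 3 called genes per list, and others where so marked. A call is the authors' adjusted p under 0.05. Computed here were counts, medians, the z test of 14 days minus 48 h, near-identical copies (BLAST 2.17.0, GENCODE mouse release 21 transcripts), pair sums weighted by mean count and the length trend (lowess, fraction 0.3, longest annotated transcript). Gene identifiers were found in that annotation for 99.6%, 99.6% and 99.2% of genes at 48 h, 14 days and E17.5. Alternatives were a threshold of 0.01, a 1.5-fold limit, adjustment over every gene, a mean count of at least 10, centring, sets without pseudogenes or tissue-restricted isoforms and, added after seeing the data, sets without copied members, pair sums and length removal. As the labels do not name separate animals, p-values reflect only differences among these libraries, which may be technical. Mitochondrial rRNAs and tRNAs were not analysed here. One result among the nuclear members is not reported here. Python 3.11.15 with pandas 2.3.3, scipy 1.17.1 and statsmodels 0.14.6 was used.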

Additional observations from a re-analysis of the deposited data

Results flagged for a closer look

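The deposited Pou3f1 over Gfp fold differed between both ages for 18 members, by the z test of the 14 day fold minus the 48 h fold, with adjusted p over 14580 genes. Pou3f1 itself had unequal folds at both ages, as given above. The difference on the log2 scale was -1.67 for mt-Co3, -1.14 for mt-Co1 and -1.01 for mt-Co2 in complex IV. For complex I it was -1.36 for mt-Nd1, -1.35 for mt-Nd2, -1.35 for mt-Nd6, -1.23 for mt-Nd3, -1.16 for mt-Nd4, -1.11 for mt-Nd5 and -0.98 for mt-Nd4l. For the remaining mitochondrial mRNAs it was -1.14 for mt-Cytb, -1.28 for mt-Atp6 and -1.25 for mt-Atp8. The nuclear members were Cox7b with -0.80, Atp5g2 with -0.96, Atp5l with -0.56, Ndufb4c with -0.68 and Ndufb4 with -0.88. All 13 mitochondrial mRNAs were below 0 at 14 days and above 0 at 48 h, and Atp5g2 was above 0 at both ages. Of the 18 members, 11 (mt-Co1, mt-Co2, mt-Co3, mt-Atp6, mt-Nd3, mt-Nd4, mt-Nd4l, Atp5g2, Atp5l, Ndufb4 and Ndufb4c) have a near-identical annotated copy.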

How the results depend on the processing

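No paired analysis was possible because the tables hold no values per library. For the same reason leaving out replicates and other normalizations were not run. Without members that have a near-identical annotated copy, the mitochondrial calls numbered 6 of 6 at 48 h and at 14 days and 5 of 6 at E17.5. The nuclear ones numbered 1 of 64, 2 of 64 and 17 of 63, the smaller counts following from fewer members. An adjusted p under 0.01 left 1 nuclear call at 48 h, 2 nuclear calls at 14 days and 16 such calls at E17.5. A limit of 1.5-fold left 0 mitochondrial and 0 nuclear calls at 14 days and 1 nuclear call at E17.5. The other counts stayed within 1.5 times. Centring kept the authors' adjusted p, and no tissue-restricted isoform was called, so neither setting could have changed a call count. The mitochondrial minus nuclear median ran from 0.67 to 0.719 at 48 h, from -0.361 to -0.431 at 14 days and from 0.377 to 0.486 at E17.5, so no direction turned. The difference of 14 days minus 48 h was called for 13 to 18 members, all lower. The mean count limit could not be applied at E17.5. Shrunken folds, the unknown depth per library and 2 libraries per group at E17.5 limit the precision.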

Other observations

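Glycolysis genes lay mostly below 0 in all 3 comparisons. Of 19 glycolysis genes 0 rose in any comparison, 2 fell at 48 h, 13 fell at 14 days and 3 fell at E17.5, with medians of -0.364, -0.343 and -0.117. The shares of all genes called lower were 1.56%, 9.21% and 5.34%. With an unadjusted p under 0.05 as the limit, 0 were higher in any comparison and 12, 14 and 5 were lower. Where a symbol had more than 1 entry, the first was used. An Aldoa entry at 48 h had a mean count of 67.2 and a log2 fold change of 0.12 ± 0.28. The Aldoa entry called lower at 14 days had a mean count of 69202, so both ages may rest on different entries. The enolase gene Eno1 fell by 0.57 ± 0.16 at 48 h, by 0.47 ± 0.11 at 14 days, and in E17.5 knockouts by 0.73 in the authors' deposited tables (adjusted p = 0.0144, 1.75e-04 and 1.52e-10). Led by adjusted p, the 14 day falls were those of Aldoc by 0.61 ± 0.09, Hk2, a hexokinase, by 0.99 ± 0.17 and Slc16a1, a lactate transporter, by 0.84 ± 0.18 in the authors' deposited table.

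The citric acid cycle had 0 of 16 genes called at 48 h, 2 higher at 14 days and 1 higher at E17.5, near the shares of all genes called higher (1.48%, 11.5% and 4.70%). Citrate synthase, Cs, rose by 0.16 ± 0.04 and Dlst by 0.12 ± 0.04 at 14 days, and Suclg2 by 0.31 at E17.5, in the authors' deposited tables (adjusted p = 7.06e-04, 0.0308 and 1.15e-04). Among 17 tested mobile electron carriers and ADP exchangers 0 were called at 48 h and 1 fell at 14 days, the ADP/ATP carrier Slc25a5, by 0.25 ± 0.09 (the authors' deposited table, adjusted p = 0.0299). At E17.5 1 of 18 rose, Etfb, by 0.33 in that table (adjusted p = 0.0103). Above 0 lay 12 of 17 carriers and exchangers at 48 h, 9 of 17 at 14 days and 17 of 18 at E17.5. A share above 0 larger than that of all genes was thus not particular to the respiratory chain at E17.5.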
